A study of Mus musculus with 3 samples.

Results

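Nfia, Nfib and Nfix encode nuclear factor I proteins, transcription factors that bind DNA as dimers at a palindromic motif and share a closely related DNA-binding domain. NFIA is known in mouse fat cells as a partner of the fat cell regulator PPARγ that binds enhancers of brown fat genes. NFIB and NFIX are best known from mouse development, NFIB in lung and brain and NFIX in brain and in the switch from embryonic to fetal muscle. A gene whose control region is in use usually carries stretches of DNA that are open to nucleases, and such hypersensitive sites around the 3 genes are described here.

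The members are the sites of 3 deposited lists whose midpoint lies in 1 of 3 windows of the mouse genome build mm9: chr4:97350000-97850000 for Nfia (500 kb), chr4:81850000-82250000 for Nfib (400 kb) and chr8:87180000-87400000 for Nfix (220 kb). They number 229 of 172496 sites, with 64 of 48308 in the brown fat (BAT) list, 86 of 63214 in the inguinal white fat (iWAT) list and 79 of 60974 in the epididymal white fat (eWAT) list. Sites of different lists that overlapped or touched were merged, which gave 135 regions of 99297 in the whole series. A site became a member by position alone, but the members and rules were chosen with earlier results of these data known. An mm9 gene annotation was not used here, so no site is called promoter, exon or intron, and how far each window follows its gene was not checked. In the GRCm38 gene table Nfia lies between Gm12695 and Tm2d1, Nfib between Mpdz and Zdhhc21, and Nfix between Lyl1 and Dand5. Other close neighbours of Nfix there are Trmt1, Nacc1 and Ier2 on one side and Gadd45gip1 and Calr on the other. Genome sequence of build mm9 was not used here, and no site sequence is printed.

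The study ran DNase-seq, in which nuclei are treated with DNase I and the cut ends are sequenced, on fat cells grown in culture. All 3 groups came from the stromal-vascular cells of male NMRI mice aged 4 to 5 weeks, and all were cultured with 30 nM insulin and 1 µM rosiglitazone, a PPARγ agonist, until day 8. The BAT cells came from pooled interscapular, cervical and axillary fat, the iWAT cells from the inguinal depot under the skin and the eWAT cells from the epididymal depot in the abdomen. Every culture thus carried the same PPARγ agonist, and only cultures above a set degree of differentiation were used. Each list comes from a whole culture, so a lower share of differentiated cells and less open chromatin per cell cannot be told apart. Each depot has 1 library: no test between depots was possible, and the intervals below cover counting error only. The labels were not checked against fat cell marker genes, because genes were not placed in mm9.

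Strength is given as the number of tags in a site, that is, the normalized tag count divided by what 1 tag is worth in that library, and as the percentile rank of the site in its own list, where 100 is the highest and 50 the median. In normalized units 1 tag is worth 0.857 in BAT, 0.985 in iWAT and 0.595 in eWAT. More tags in 1 depot than in another are thus not in themselves more signal. A site is called strong at a percentile rank of 75 or above, which takes at least 21 tags in BAT, 21 in iWAT and 23 in eWAT. Fold is the tag density of a site over that of its surroundings, as the authors' list gives it, and no list goes below 4.

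The Nfia window was dense in sites in every depot. It held 32 sites in BAT, 45 in iWAT and 41 in eWAT, where the median 500 kb window of a grid over the genome held 8 in BAT, 10 in iWAT and 10 in eWAT. Only 63 of 5153 grid windows in BAT (1.22%), 9 of 5153 in iWAT (0.175%) and 16 of 5154 in eWAT (0.310%) held at least as many. The Nfib window held 18 sites in BAT, 19 in iWAT and 20 in eWAT, a number reached by 9.97% of grid windows of 400 kb in BAT, 17.8% in iWAT and 13.4% in eWAT. The Nfix window held 14 sites in BAT, 22 in iWAT and 18 in eWAT, a number reached by 3.84% of grid windows of 220 kb in BAT, 0.599% in iWAT and 2.09% in eWAT.

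The depots held similar numbers of sites in the 3 windows once the length of the lists was taken into account. Of every 10000 sites, the Nfia window held 6.62 in BAT (95% interval 4.53 to 9.35), 7.12 in iWAT (5.19 to 9.53) and 6.72 in eWAT (4.83 to 9.12). The Nfib window held 3.73 in BAT (2.21 to 5.89), 3.01 in iWAT (1.81 to 4.69) and 3.28 in eWAT (2.0 to 5.07). The Nfix window held 2.90 in BAT (1.58 to 4.86), 3.48 in iWAT (2.18 to 5.27) and 2.95 in eWAT (1.75 to 4.67). For each gene the 3 exact Poisson intervals overlapped widely. These intervals treat the sites of a list as independent and the lists as unrelated, although the lists share regions. No depot has a replicate library, so a difference in site number between depots could not be tested.

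**Figure D1:**
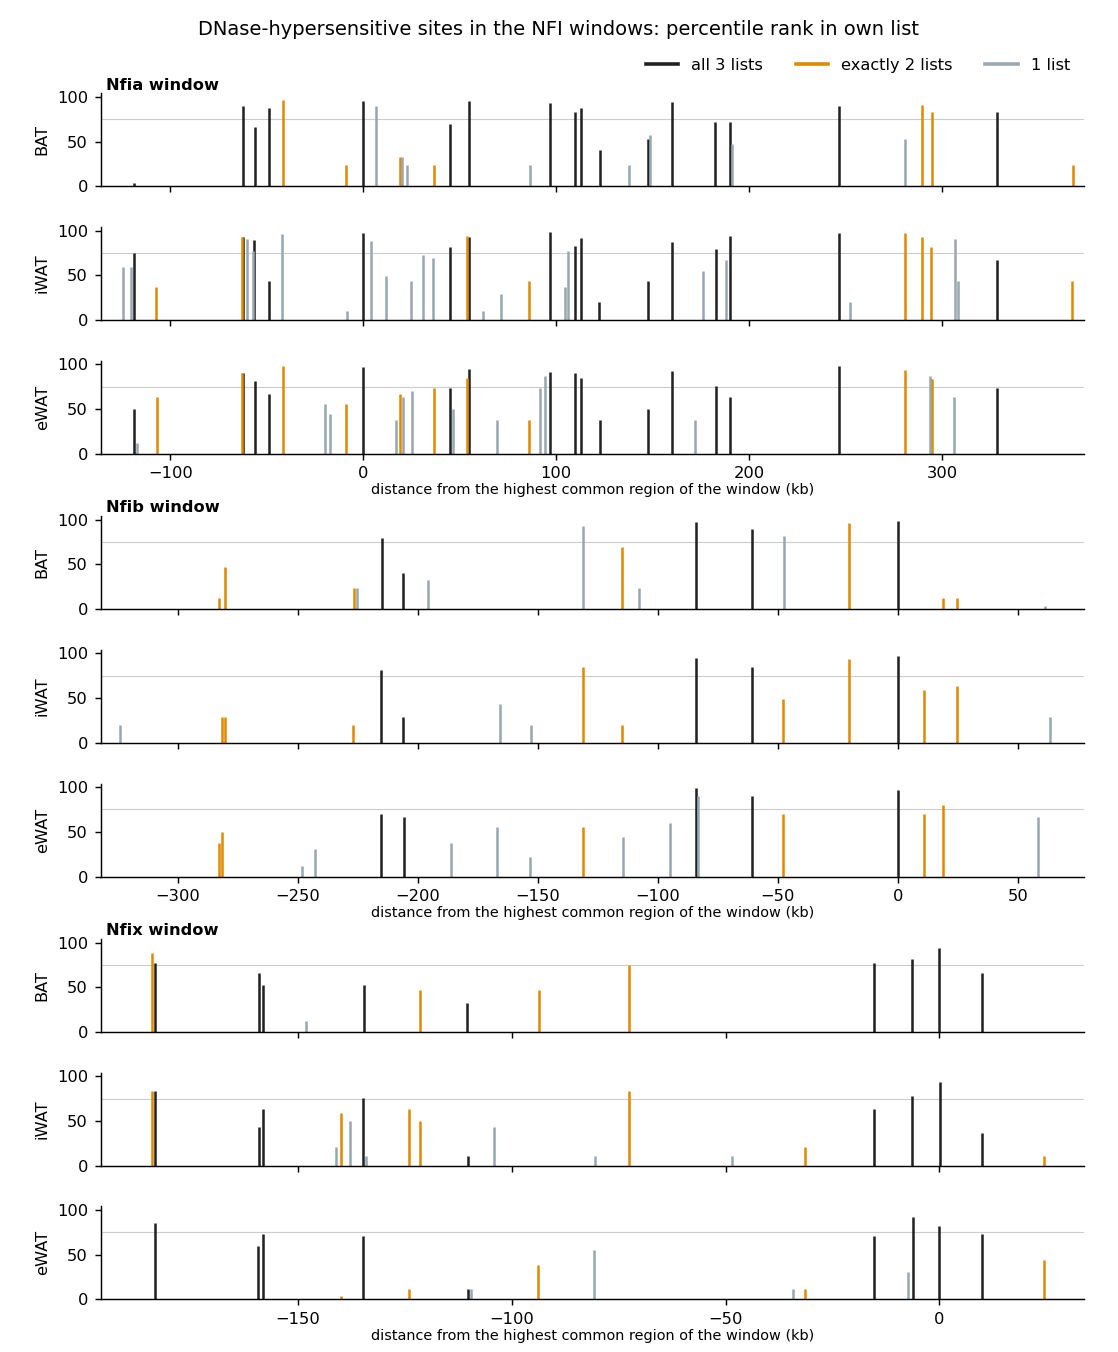
Percentile rank (vertical axis, 0 to 100) of each site in the list of its depot, by distance in kb from the common region with the highest mean rank in that window; rows are BAT, iWAT and eWAT for each gene, line colour gives how many lists hold the region, and the grey line marks rank 75. Sites run through most of the Nfia window, with 71 regions, while the Nfix window has its highest common regions near both ends.

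Nfia held a larger share of strong sites than each list as a whole. The median percentile rank of its sites was 70.9 in BAT, 77.4 in iWAT and 73.1 in eWAT, and their median tag count 19.5 in BAT, 22 in iWAT and 22 in eWAT. Of the Nfia sites, 14 of 32 in BAT (43.8%, 95% interval 26.4 to 62.3), 24 of 45 in iWAT (53.3%, 37.9 to 68.3) and 18 of 41 in eWAT (43.9%, 28.5 to 60.3) were strong. In the whole lists 26.2% of BAT sites, 26.1% of iWAT sites and 25.6% of eWAT sites were strong. All 3 intervals for Nfia lay above the list's own share, in BAT only just; neighbouring sites are not independent, so the intervals are too narrow. Among grid windows of 500 kb with at least 10 sites, 7.62% in BAT, 2.13% in iWAT and 5.39% in eWAT had a median rank as high. Windows with at least as many sites as Nfia had a median rank of 57.9 in BAT, 59.1 in iWAT and 59.7 in eWAT, so dense windows in general ranked above 50.

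For Nfib and Nfix, with fewer sites, the share of strong sites could not be told apart from that of the lists. The median rank of Nfib sites was 43.8 in BAT, 43.5 in iWAT and 63.4 in eWAT, and 7 of 18 in BAT, 6 of 19 in iWAT and 5 of 20 in eWAT were strong. The median rank of Nfix sites was 66.0 in BAT, 49.4 in iWAT and 49.8 in eWAT, and 6 of 14 in BAT, 6 of 22 in iWAT and 3 of 18 in eWAT were strong. In BAT these shares were 38.9% at Nfib and 42.9% at Nfix, close to the 43.8% at Nfia. In iWAT they were 31.6% at Nfib and 27.3% at Nfix, and in eWAT 25.0% at Nfib and 16.7% at Nfix. The 95% intervals of these 6 shares all included the share of the whole list, and the widest ran from 17.7 to 71.1% for Nfix in BAT. With so few sites, the BAT values do not set Nfia apart from Nfib and Nfix. Nfib sites ranged from 9 to 56 tags in BAT, 7 to 48 in iWAT and 11 to 54 in eWAT, so the window held some of the strongest and some of the weakest sites of the 3 genes. Nfix sites reached no more than 36 tags in BAT, 35 in iWAT and 35 in eWAT.

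**Figure D2:**
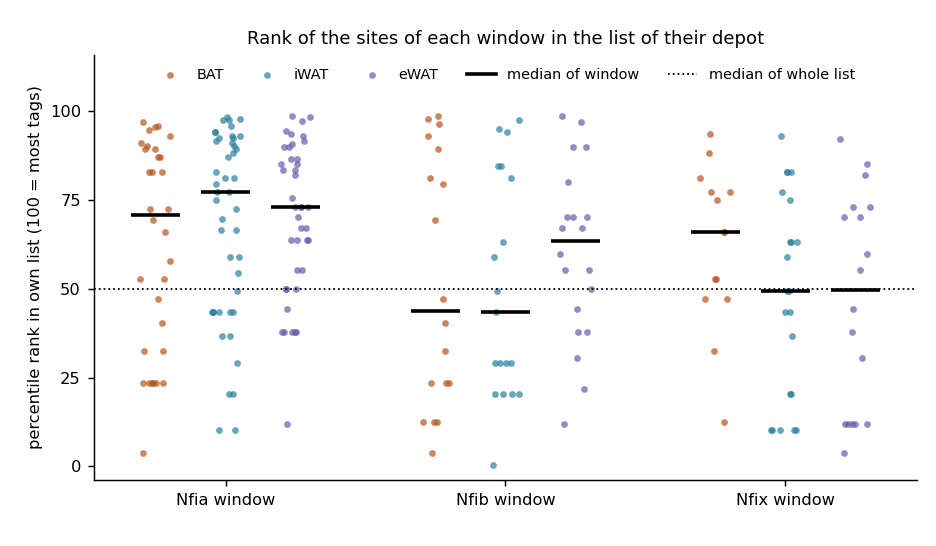
Percentile rank of every site in the list of its depot (points, jittered sideways), by window and depot, with the median of the window (thick line) and of the whole list (dotted line at 50). The Nfia medians of 70.9 in BAT, 77.4 in iWAT and 73.1 in eWAT lie above 50, while 4 of the other 6 medians lie between 43.5 and 49.8.

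Nfia sites as a whole ranked high by tags but had low enrichment over the surroundings. The median fold of Nfia sites was 6.03 in BAT, 6.69 in iWAT and 5.23 in eWAT, against 9.23 in BAT, 9.91 in iWAT and 7.46 in eWAT for the whole lists. Among grid windows of 500 kb with at least 10 sites, 11 of 2192 in BAT (0.502%), 28 of 2722 in iWAT (1.03%) and 14 of 2689 in eWAT (0.521%) had a median fold as low. Grid windows with at least as many sites as the Nfia window had a median fold of 8.12 in BAT, 8.03 in iWAT and 6.85 in eWAT. Fold was below 5, close to the minimum of 4, at 10 of 32 Nfia sites in BAT (31.3%), 12 of 45 in iWAT (26.7%) and 15 of 41 in eWAT (36.6%). In the whole lists it was below 5 at 6.77% of BAT sites, 5.88% of iWAT sites and 13.5% of eWAT sites. The strong Nfia sites had a median fold of 7.24 in BAT, 6.88 in iWAT and 5.31 in eWAT, against 12.3 in BAT, 12.9 in iWAT and 9.77 in eWAT for all strong sites of the lists. The tags outside listed sites were not analysed here, so how far the DNA between the Nfia sites is open cannot be given. A site here that fell just short of fold 4 would be missing from a list, and this touches every statement below on regions held by 1 or 2 lists.

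Nfib sites showed the low fold most in eWAT. Their median fold was 6.90 in BAT, 6.73 in iWAT and 4.89 in eWAT, and it was below 5 at 3 of 18 sites in BAT, 2 of 19 in iWAT and 11 of 20 in eWAT. A median as low was found in 149 of 2190 grid windows of 400 kb in BAT (6.80%), in 57 of 2867 in iWAT (1.99%) and in 6 of 2837 in eWAT (0.211%). The Nfix sites had a median fold of 11.1 in BAT, 7.98 in iWAT and 7.33 in eWAT. Of these the BAT median was above that of its list, the iWAT median below, and the eWAT median close to it. Fold was below 5 at 1 of 14 Nfix sites in BAT, 3 of 22 in iWAT and 2 of 18 in eWAT.

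Far fewer Nfia sites were strong when ranked by fold. With fold in place of tags, the sites at percentile rank 75 or above numbered 4 in BAT, 3 in iWAT and 2 in eWAT at Nfia, against 14 in BAT, 24 in iWAT and 18 in eWAT by tags. At Nfib they numbered 3 in BAT, 2 in iWAT and 0 in eWAT, against 7 in BAT, 6 in iWAT and 5 in eWAT by tags. At Nfix they numbered 6 in BAT, 2 in iWAT and 5 in eWAT, against 6 in BAT, 6 in iWAT and 3 in eWAT by tags, so the BAT count was the same and the eWAT count higher.

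**Figure D3:**
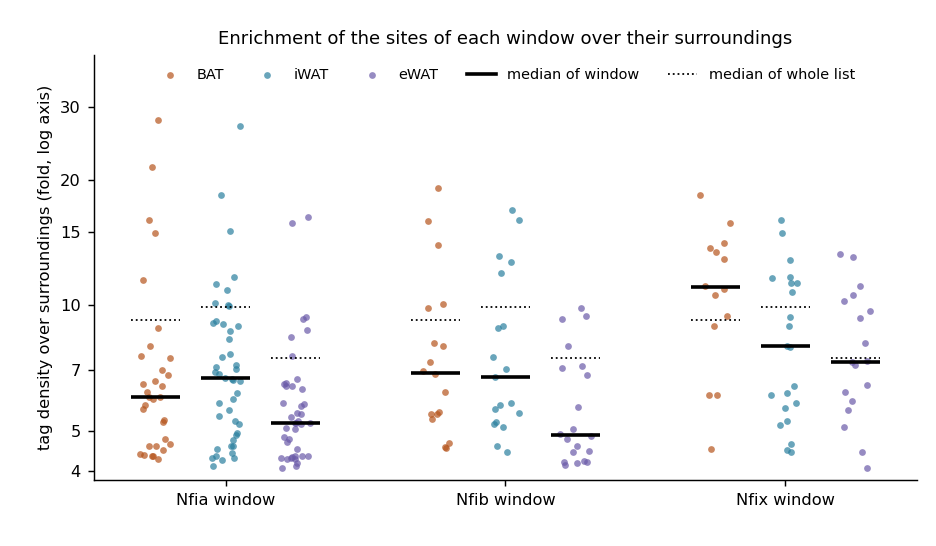
Fold of tag density over the surroundings (log axis) for every site, by window and depot, with the median of the window (thick line) and of the whole list (dotted line). Nfia medians of 6.03 in BAT, 6.69 in iWAT and 5.23 in eWAT lie below the medians of their lists in all 3 depots, as do those of Nfib.

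The lists shared regions at the 3 genes about as often as elsewhere. Of the 135 regions, 31 (23.0%, 95% interval 16.2 to 31.0) were in all 3 lists, 32 in exactly 2 and 72 (53.3%, 44.6 to 62.0) in a single list. Over all regions 25.2% were in all 3 lists and 51.5% in a single list. Common regions made up 17 of 71 at Nfia (23.9%, 14.6 to 35.5), 5 of 36 at Nfib (13.9%, 4.67 to 29.5) and 9 of 28 at Nfix (32.1%, 15.9 to 52.4), and each interval included 25.2%. Regions held by 2 lists were in BAT and iWAT at 2 Nfia, 5 Nfib and 3 Nfix regions, in BAT and eWAT at 5 Nfia, 2 Nfib and 1 Nfix regions, and in iWAT and eWAT at 6 Nfia, 4 Nfib and 4 Nfix regions. Over all regions 6.73% were in BAT and iWAT, 5.32% in BAT and eWAT, and 11.3% in iWAT and eWAT. Regions in BAT alone numbered 8 at Nfia, 6 at Nfib and 1 at Nfix, those in iWAT alone 20 at Nfia, 5 at Nfib and 6 at Nfix, and those in eWAT alone 13 at Nfia, 9 at Nfib and 4 at Nfix. Over all regions 11.4% were in BAT alone, 20.5% in iWAT alone and 19.6% in eWAT alone. The 20 Nfia regions in iWAT alone were 28.2% of its 71 (95% interval 18.1 to 40.1), and for each gene and each of these classes the interval included the share over all regions.

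**Figure D4:**
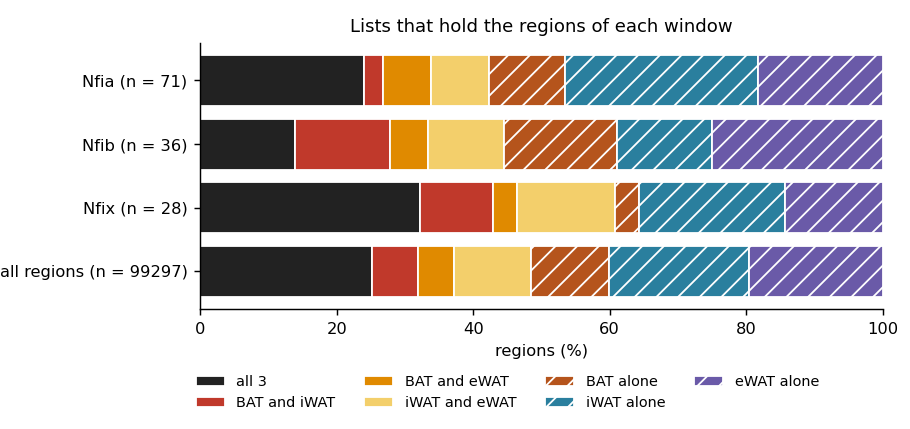
Share of regions (%) by the lists that hold them, for each window and for all 99297 regions; hatched parts are held by 1 list. The part held by all 3 lists is 23.9% at Nfia, 13.9% at Nfib and 32.1% at Nfix, beside 25.2% of all regions.

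Of the 31 common regions, 14 were strong in all 3 lists (45.2%), where 27.1% of all common regions were. These were 8 of 17 at Nfia, 3 of 5 at Nfib and 3 of 9 at Nfix. Sites of a common region lay close together: their centres spread over a median of 63 bp, against 73 bp for all common regions, and over more than 100 bp at 9 of 31 (29.0%), against 35.4%.

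The highest common region of the 3 windows lay at Nfib, chr4:82177140-82177385. It held 56 tags in BAT (95% interval 42.3 to 72.7), 48 in iWAT (35.4 to 63.6) and 46 in eWAT (33.7 to 61.4), which as normalized tag counts are 48.0 in BAT, 47.3 in iWAT and 27.4 in eWAT, each relative to its own library. Its percentile rank was 98.8 in BAT, 97.7 in iWAT and 97.1 in eWAT, and its fold 19.2 in BAT, 16.02 in iWAT and 9.88 in eWAT. It was the highest Nfib site of both BAT and iWAT. The next, chr4:82092991-82093241, held 49 tags in BAT, 39 in iWAT and 54 in eWAT, and was the highest Nfib site of eWAT. Both were thus in the top 5% of every list, and the ranges of ranks allowed by counting error overlapped between the depots. The region at chr4:82116298-82116542 followed with 30 tags in BAT, 26 in iWAT and 32 in eWAT, and chr4:81961871-81962242 with 23 in BAT, 24 in iWAT and 21 in eWAT.

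At Nfia the common region with the highest mean rank was chr4:97481050-97481338. It held 40 tags in BAT, 48 in iWAT and 47 in eWAT, with percentile ranks of 95.6 in BAT, 97.7 in iWAT and 97.4 in eWAT and folds of only 6.57 in BAT, 9.0 in iWAT and 6.29 in eWAT. The region at chr4:97727720-97727951 held 30 tags in BAT (20.2 to 42.8), 49 in iWAT (36.3 to 64.8) and 54 in eWAT (40.6 to 70.5), and its percentile ranks were 89.4 in BAT, 97.9 in iWAT and 98.6 in eWAT. Its normalized tag counts were 25.7 in BAT, 48.3 in iWAT and 32.1 in eWAT. Its eWAT site was the highest Nfia site of that list, and its fold of 14.95 in BAT, 27.0 in iWAT and 15.8 in eWAT was well above the Nfia medians. It lay beside the longest stretch of the window without any listed site, 55.6 kb from 97.672 to 97.728 Mb. The BAT value was the lowest of the 3, yet the range of ranks allowed by counting error reached 96.4 in BAT and began at 93.9 in iWAT and 95.3 in eWAT, so the ranges overlapped.

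The other named common regions of Nfia were chr4:97535772-97536025, with 41 tags in BAT, 35 in iWAT and 39 in eWAT, and chr4:97577795-97578066, with 35 in BAT, 53 in iWAT and 34 in eWAT. The 53 tags of the second made it the highest Nfia site of iWAT. Its range of ranks was 82.3 to 97.8 in BAT, 95.3 to 99.6 in iWAT and 76.8 to 97.5 in eWAT, so the iWAT range overlapped both others.

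At Nfix the highest common region was chr8:87370971-87371236, with 36 tags in BAT, 35 in iWAT and 26 in eWAT, and with percentile ranks of 93.7 in BAT, 93.05 in iWAT and 81.97 in eWAT. It held the highest Nfix site of both BAT and iWAT. The highest of eWAT lay at chr8:87364617-87364941, with 24 tags in BAT, 22 in iWAT and 35 in eWAT. As normalized tag counts these are 20.6 in BAT, 21.7 in iWAT and 20.8 in eWAT. The percentile ranks were 81.4 in BAT, 77.4 in iWAT and 92.3 in eWAT. Both regions stood well above their surroundings, with folds of 13.7 in BAT, 16.1 in iWAT and 8.14 in eWAT at the first and 18.5 in BAT, 14.9 in iWAT and 13.3 in eWAT at the second. The region at chr8:87187642-87187893 held 22 tags in BAT, 25 in iWAT and 28 in eWAT with folds of only 4.53 in BAT, 4.49 in iWAT and 4.08 in eWAT. The last of the 4, chr8:87355600-87355893, held 22 tags in BAT, 17 in iWAT and 21 in eWAT. All 4 lay within 50 kb of an edge of the window, and between 87.299 and 87.356 Mb BAT listed no site, iWAT 2 and eWAT 2.

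In no common region of the 3 genes were the ranges of rank allowed by counting error separate between depots. The tags of each site were given an exact 95% Poisson interval and both bounds were turned into percentile ranks of the same list; depots were said to differ where these ranges did not overlap. None of the 31 common regions did so in any pair of depots. Of all common regions 1.98% did so for BAT against iWAT, 1.76% for BAT against eWAT and 0.908% for iWAT against eWAT. At these shares fewer than 1 region of 31 would be past the limit in each pair, so the count of 0 is near the background and shows no likeness particular to these genes. Separate ranges are a stricter rule than a direct comparison of 2 counts, which was not run. The count of 0 thus does not show that the depots were alike. The ranges were wide: a BAT site with 16 tags, at rank 57.9, ranged from 6.58 to 83.8, and one with 50 tags, at rank 98.1, ranged from 94.5 to 99.4.

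The medians of the ranks were also close between depots. Over the 31 common regions the median rank was 79.5 in BAT, 81.3 in iWAT and 75.6 in eWAT. BAT ranked higher than iWAT in 17 of 31 (54.8%; 38.1% of all common regions) and higher than eWAT in 16 of 31 (51.6%; 38.1% of all), and iWAT ranked higher than eWAT in 13 of 31 (41.9%; 48.4% of all). By gene, BAT ranked above iWAT in 7 of 17 regions at Nfia, 4 of 5 at Nfib and 6 of 9 at Nfix. BAT ranked above eWAT in 10 of 17 at Nfia, 2 of 5 at Nfib and 4 of 9 at Nfix. For iWAT above eWAT the counts were 9 of 17 at Nfia, 2 of 5 at Nfib and 2 of 9 at Nfix.

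**Figure D5:**
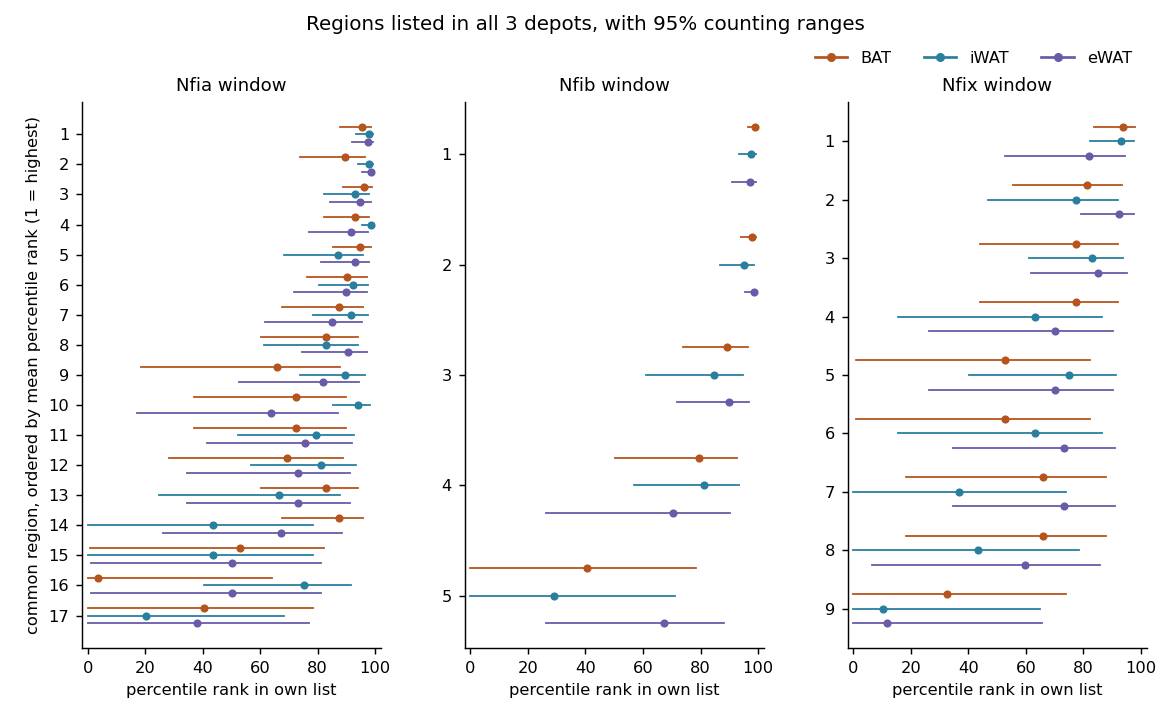
Percentile rank in its own list (points) of each of the 31 common regions, with the range that a 95% Poisson interval on its tags gives (lines), for BAT, iWAT and eWAT from top to bottom within each region; regions are ordered by mean rank. The ranges of each pair of depots overlap in all 31 regions, and they span most of the axis for weak sites.

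The 4 common regions with the widest gaps in rank were 2 at Nfia, 1 at Nfib and 1 at Nfix, singled out after their values were seen. At chr4:97362289-97362529 BAT had 9 tags, iWAT 21 and eWAT 16, and the percentile ranks were 3.75 in BAT, 75.1 in iWAT and 50.1 in eWAT. At chr4:97432252-97432523 BAT had 28 tags, iWAT 13 and eWAT 20, with ranks of 87.2 in BAT, 43.5 in iWAT and 67.1 in eWAT; its BAT fold of 27.9, beside 15.1 in iWAT and 9.36 in eWAT, was the highest of the 3 windows. The first was low in BAT and the second high in BAT. At chr4:81971065-81971352, in the Nfib window, BAT had 13 tags, iWAT 11 and eWAT 20, with ranks of 40.4 in BAT, 29.03 in iWAT and 67.1 in eWAT. At chr8:87380842-87381091, in the Nfix window, BAT had 18 tags, iWAT 12 and eWAT 22, with ranks of 65.97 in BAT, 36.7 in iWAT and 73.1 in eWAT. Both ranked highest in eWAT and lowest in iWAT. The normalized tag count of the Nfix region was highest in BAT, with 15.4 in BAT, 11.8 in iWAT and 13.1 in eWAT. In all 4 regions the ranges of ranks of the depots overlapped.

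Among regions held by exactly 2 lists, the highest at Nfib was absent from eWAT and had no eWAT site close by. It lay at chr4:82156818-82157053, held 43 tags in BAT (31.1 to 57.9) and 37 in iWAT (26.1 to 51.0), at ranks of 96.6 in BAT and 94.2 in iWAT, and the nearest eWAT site was 20112 bp away. Its fold was 5.54 in BAT and 4.45 in iWAT, close to the minimum of 4, and the fold of eWAT was the lowest of the lists in general; whether its tags in eWAT fell short of that minimum was not tested. It lay in the longest stretch of the window without an eWAT site, 47.6 kb from 82.130 to 82.177 Mb. The next Nfib region of this kind, chr4:82046066-82046289, held 26 tags in iWAT and 17 in eWAT, and a BAT site with 35 tags lay 75 bp away.

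At Nfia the highest region of 2 lists, chr4:97439574-97439798, held 45 tags in BAT and 53 in eWAT, at ranks of 97.1 in BAT and 98.4 in eWAT. The normalized tag counts were in the reverse order, 38.5 in BAT and 31.5 in eWAT. This region held the highest Nfia site of BAT. The iWAT list had no site there but one with 41 tags at chr4:97439112-97439334, 240 bp away, at rank 95.9, which was in turn the highest Nfia site found in a single list. All 3 depots thus had a site in the top 5% of their list within 1 kb, but the iWAT site did not overlap the others. Whether these are 1 site or separate sites was not tested. The folds were 5.65 in BAT, 4.61 in iWAT and 5.22 in eWAT. The next, chr4:97761974-97762248, held 47 tags in iWAT and 37 in eWAT, and the closest BAT site, 136 bp away, held 15 tags.

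At Nfix the highest regions of 2 lists were both in BAT and iWAT. The region at chr8:87186798-87187025 held 29 tags in BAT and 25 in iWAT, and an eWAT site lay 617 bp away. The region at chr8:87298452-87298704 held 21 tags in BAT and 25 in iWAT, and the nearest eWAT site was 8006 bp away.

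Of the 72 regions held by a single list, 12 were strong: 3 in BAT, 6 in iWAT and 3 in eWAT. That is 16.7% (95% interval 8.92 to 27.3), where 7.8% of all single-list regions were strong. Of the 12, 9 lay at Nfia, 3 at Nfib and none at Nfix, and 7 of the 12 had a site of another list within 1 kb. Of all single-list regions, strong or not, 15 of 41 at Nfia, 8 of 20 at Nfib and 6 of 11 at Nfix had one. The share over the whole lists was not computed, so these counts have no background beside them. At Nfib the strong single-list sites were a BAT site at chr4:82045769-82045991 with 35 tags, 75 bp from the iWAT and eWAT region named above, an eWAT site at chr4:82093689-82093909 with 32 tags, 455 bp from an iWAT site, and a BAT site at chr4:82129734-82129956 with 24 tags, 148 bp from an eWAT site. All 3 therefore had sites of the other depots within 1 kb. The iWAT site near chr4:82093689-82093909 belongs to the common region chr4:82092991-82093241, which has its own eWAT site with 54 tags. The eWAT site at chr4:82093689-82093909 is thus listed in addition to that one.

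At Nfia 5 strong single-list sites had no site of another list within 1 kb. The highest was the iWAT site at chr4:97420863-97421085, with 32 tags (21.9 to 45.2) at rank 91.0, a fold of 4.43 and the nearest site of another list 1921 bp away. An iWAT site at chr4:97485288-97485510 with 29 tags and a BAT site at chr4:97487429-97487651 with 30 tags lay 1919 bp from each other, with folds of 4.61 in iWAT and 5.77 in BAT. The other 2 were an eWAT site at chr4:97575421-97575641 with 29 tags and a fold of 4.19, and an iWAT site at chr4:97587268-97587490 with 22 tags and a fold of 5.6. These 5 sites had folds of 4.19 to 5.77. At Nfix the highest single-list sites were weak, with 17 tags in eWAT at chr8:87290226-87290446, 26 bp from an iWAT site, and 14 tags in iWAT at chr8:87233232-87233454.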

How the data were processed

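DNase-seq sites of 3 cultures, 1 library per depot, were analysed from 1 list per depot. Per the submitters' processing notes, STAR, HOMER and build mm9 were used, with no roles or settings given, and the column names are those of HOMER's findPeaks. The authors deposited for each site a normalized tag count, treated as a signal, a focus ratio (a fraction), a peak score, a fold (ratio) over the surroundings and its p-value, and a ratio that gauges repeated tags. The library total used for scaling is not stated there. The values are whole multiples of 0.857 in BAT, 0.985 in iWAT and 0.595 in eWAT (99.99% of values in BAT, 100.0% in iWAT and 99.99% in eWAT within 0.06, or within 0.006 below 10), taken as 1 tag each; the tags equalled the score at 40.2% of sites in BAT, 42.8% in iWAT and 38.2% in eWAT. The median site held 14 tags in BAT, 14 in iWAT and 16 in eWAT.

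Sites were assigned by midpoint, and sites that overlapped by 1 bp or touched were merged. Percentile rank is the percent of the list's sites with fewer tags, with ties set to the middle of their range. Poisson and Clopper-Pearson intervals are exact at 95%. Grid windows were aligned to the chromosome start and ran from the window of the first listed site to that of the last. They were used to describe, not to test. Named in each window were the 4 common regions with the highest mean rank, the 2 highest regions of 2 lists and of 1 list, and the highest site of each depot; other named regions are marked or make up small counts. The members, lists and rules were chosen with earlier results of these data known, and fold was examined after its values were seen. Merging, tag recovery and intervals were tested on simulated data. Python 3.11.15, numpy 2.4.6, pandas 2.3.3, scipy 1.17.1 and matplotlib 3.10.9 were used.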

Additional observations from a re-analysis of the deposited data

How the results depend on the processing

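Counts of sites, common regions, single-list regions, strong sites and regions apart in rank were recomputed under 9 settings. A 99% interval or narrower windows cannot add a region to a count of 0 apart in rank, so those 18 counts say nothing. Of the other 138 recomputed counts, 112 were within 1.5 times the reported one and 26 were not. No common region became apart in rank with lists of equal length, wider windows or ranking by score. With lists of equal length, an overlap of 50% or ranking by score all counts stayed within 1.5 times. With sites within 200 bp merged, Nfib had 8 common regions in place of 5. With windows 50 kb wider, Nfix had 10 strong iWAT sites in place of 6. With windows 50 kb narrower, Nfix kept 5 sites in BAT, 13 in iWAT and 9 in eWAT, of which 1 in BAT, 2 in iWAT and 0 in eWAT were strong, and 2 common regions in place of 9. Ranked by fold, strong sites numbered 4 in BAT, 3 in iWAT and 2 in eWAT at Nfia, 3 in BAT, 2 in iWAT and 0 in eWAT at Nfib, and at Nfix 2 in iWAT and 5 in eWAT in place of 6 in iWAT and 3 in eWAT. With strong taken as the top 10%, they numbered 7 in BAT, 14 in iWAT and 8 in eWAT at Nfia, 4 in BAT, 3 in iWAT and 2 in eWAT at Nfib, and 1 in each depot at Nfix. The cause of these shifts was not tested beyond what each setting changes by construction. No paired analysis was possible because each depot has 1 library. Depth limits single sites: with 10 tags in BAT the 95% interval runs from 4.80 to 18.4 tags, so ranks of weak sites cannot be compared between depots.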
